A study of Mus musculus with 4 samples.

Results

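Genes that steer growing axons and growing vessels were compared between endothelial cells (ECs) of the dura mater, the outer membrane that lies between skull and brain, and ECs of the brain parenchyma. Members were chosen by symbol alone, as those starting with Sema, Slit or Ntn and a digit, with Plxna to Plxnd, Epha, Ephb, Efna, Efnb, Robo or Unc5. This rule took 69 of the 23282 gene rows in the count tables. Of these, 66 encode guidance ligands or receptors and the other 3 do not. The 3 are Unc50, a Golgi and nuclear membrane protein, Unc5cl, a death domain adaptor, and Plxna4os1, an antisense transcript within Plxna4. The study asked how gene expression differs between these ECs, in the context of how readily they sprout. All mice were of strain C57BL/6J and 8 weeks of age, and the labels give no treatment. ECs were sorted as CD31+ CD45- TER-119- cells, after a magnetic CD31 enrichment that is described for brain alone, and each tissue was represented by 2 libraries. Neither the number of mice behind a library nor whether replicates were separate animals is stated, so p-values measure only the spread between these libraries.

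Semaphorins bind plexins, often with neuropilins as coreceptors. Ephrins and their Eph receptor kinases sit on facing cells and can signal in both directions, and ephrin-B2 and EphB4 are the classical marks of arteries and veins. Slits bind Robo receptors, and netrins bind Unc5 receptors, DCC and neogenin. In vessels these systems are known for guiding tip cells, setting arterial and venous borders and restraining sprouts, and Robo4 and plexin D1 are known as endothelial receptors.

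Libraries held 13518973 to 16096203 counts, and each of the 14 endothelial markers checked had 64 or more counts in each of the 4 libraries. Levels below are counts of 3′ end reads, or CPM, which are counts per 1000000 counts of a library's effective (TMM scaled) size. A count of 0 allows up to 3 counts, which is 0.182 to 0.225 CPM depending on the library, and such limits cover counting error only. Markers of several other cell types differed between the tissues, and those of others overlapped. Of 12 neuronal markers, 10 had 7 or fewer counts in both brain libraries, with a summed level of 1.57 and 17.9 CPM there against 189 and 48.5 CPM in the dura mater, and Gad1 and Syp were at 0 throughout. The 8 lymphatic markers summed to 122 and 143 CPM in brain and 554 and 723 CPM in the dura mater, and Prox1 and Lyve1 were at 0 in brain with 125 to 1776 counts in the dura mater. Fibroblast and meningeal stroma markers summed to 2517 and 2250 CPM against 11232 and 11193 CPM, largely through Mgp. Dcn (16 and 15 against 1184 and 1664 counts), Col1a1 (20 and 42 against 759 and 1237) and Col1a2 (4 and 31 against 1135 and 1913) were also higher in the dura mater, while Pdgfra and Lum had 4 or fewer counts in each library and Slc6a13 was at 0. Astrocyte markers summed to 52.0 and 79.3 CPM against 433 and 177 CPM, with Slc1a3 at 1 and 1 against 915 and 74 counts, Gja1 at 743 and 103 against 3641 and 2460, and Aqp4 at 0 throughout. S100b leaned toward brain instead, at 9 and 949 against 0 and 294 counts. Gfap (3 and 0 against 189 and 0) and Aldoc (3 and 5 against 256 and 2) rested on dura mater replicate 1. Erythroid markers had the opposite order, at 17855 and 25466 CPM against 1483 and 755 CPM, and 3 of the 5 tested passed in edgeR toward brain. The venous markers summed to 1580 and 1115 CPM against 8489 and 6681 CPM, although Slc38a5 among them had the opposite order (4159 and 2754 against 174 and 589 counts). Sums of mural markers overlapped, at 758 and 1167 CPM against 1235 and 706 CPM. So did those of Schwann cell, oligodendrocyte, osteoblast, microglia and macrophage, and other leukocyte markers. In a bulk sample, fewer cells of a type and less RNA per cell cannot be told apart, and the part that these cells have in the results below was not tested.

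Counts of the guidance genes, as of gene rows in general, were close to all or none. Of the 69 members, 14 had 64 or more counts in each of the 4 libraries (20.3%, against 18.3% of all gene rows), and 22 had 7 or fewer in each (31.9%, against 48.8%), of which 15 were at 0 throughout (21.7%, against 41.3%). Members at 64 or more counts numbered 21 and 18 in brain but 33 and 34 in the dura mater. As a share of the 69 this is 30.4% and 26.1% against 47.8% and 49.3%, where all gene rows gave 28.8% and 28.4% against 31.3% and 42.2%. The tissues were not alike in this respect. There were 8 members with 64 or more counts in both dura mater libraries and 7 or fewer in both brain libraries (11.6% of members, against 3.27% of all gene rows), and 0 members had the opposite pattern (0.202% of all gene rows). The 8 were Sema4a, Sema4b, Sema4d, Plxna4, Efna5, Ephb1, Ntn1 and Unc5c.

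**Figure D1:**
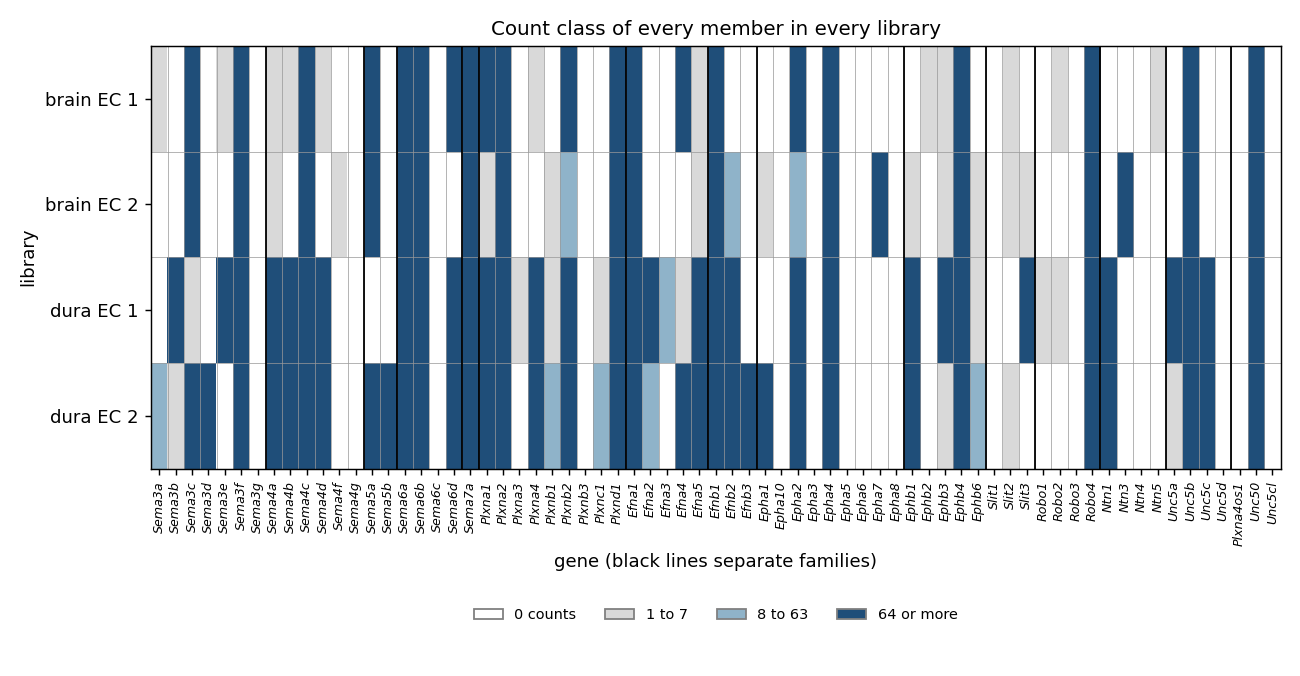
Count class of the 69 members (columns, grouped by family) in each of the 4 libraries (rows), from 0 counts (white) to 64 or more (dark blue). The dura mater rows hold 33 and 34 dark cells and the brain rows 21 and 18.

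Replicates often disagreed. There were 5 members with 64 or more counts in 1 brain library and 7 or fewer in the other (Sema6d, Plxna1, Efna4, Epha7 and Ntn3), and 12 did so in the dura mater (Sema3b, Sema3c, Sema3d, Sema3e, Sema5a, Sema5b, Efna4, Efnb3, Epha1, Ephb3, Slit3 and Unc5a). These are 7.25% and 17.4% of the members, against 11% and 13.8% of all gene rows. Of the 12, 9 were near 0 in both brain libraries as well, so that they rested on a single dura mater library. They were Sema3b, Sema3e, Ephb3, Slit3 and Unc5a in replicate 1 (5 members, 1.31% of all gene rows), and Sema3d, Sema5b, Efnb3 and Epha1 in replicate 2 (4 members, 5.19% of all gene rows). Brain replicate 2 alone held Epha7 and Ntn3 (0.524% of all gene rows), and brain replicate 1 alone held 0 members (0.636% of all gene rows).

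The filter on low counts left 31 members for the test, and 0 of them differed at an adjusted p under 0.05 in edgeR's quasi-likelihood test, against 0.61% of the 9347 genes tested (0.428% higher and 0.182% lower in the dura mater). At an unadjusted p under 0.05 there were 6 members (19.4%), against 10% of all genes. They were Sema4a, Ntn1, Efnb2 and Sema4b toward the dura mater (4 members, against 7.04% of all genes) and Sema7a and Sema3c toward brain (2 members, against 2.97%). DESeq2 called these same 6 members at an adjusted p under 0.05 (8.67% of all genes), and limma-voom called Sema7a alone (0.856% of all genes). In edgeR, Sema7a and Sema3c passed without a filter on low counts (2.39% of all genes), and Sema7a passed among genes with at least 10 counts in every library (2.95% of all genes). The median log2 fold change, dura mater over brain, was 1.25 over the 31 members and −0.0069 over all genes tested. At least 2-fold apart were 23 members (54.0% of all genes), 19 higher in the dura mater (28.4%) and 4 in brain (25.7%). With 1 library left out, its tissue keeps a single library whose spread is not measured, so only effect sizes are given for such fits. Without brain replicate 1 edgeR put 40 members at least 2-fold apart, and without brain replicate 2 it put 38. The median log2 fold change of all genes was itself 1.03 without brain replicate 1 and 0.95 without brain replicate 2. The share of all genes at least 2-fold apart is not given for these fits. The brain and dura mater values did not overlap for 26 members (83.9%), against 43.1% of all genes. Of these, 19 were higher in the dura mater (26.2% of all genes) and 7 in brain (16.9%). Genes that pass the filter through a single tissue have to differ, so the 14 members at 64 or more counts in each library are the plainer comparison: 11 of them did not overlap, 5 higher in the dura mater and 6 in brain, against 44.6%, 19.9% and 24.7% of the 4266 gene rows with such counts. The 6 include Unc50, which is not a guidance gene, and Unc5b, which overlapped under upper-quartile and library-size scaling. With 2 libraries against 2, an exact permutation test of a single gene cannot give a two-sided p under 0.333.

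**Figure D2:**
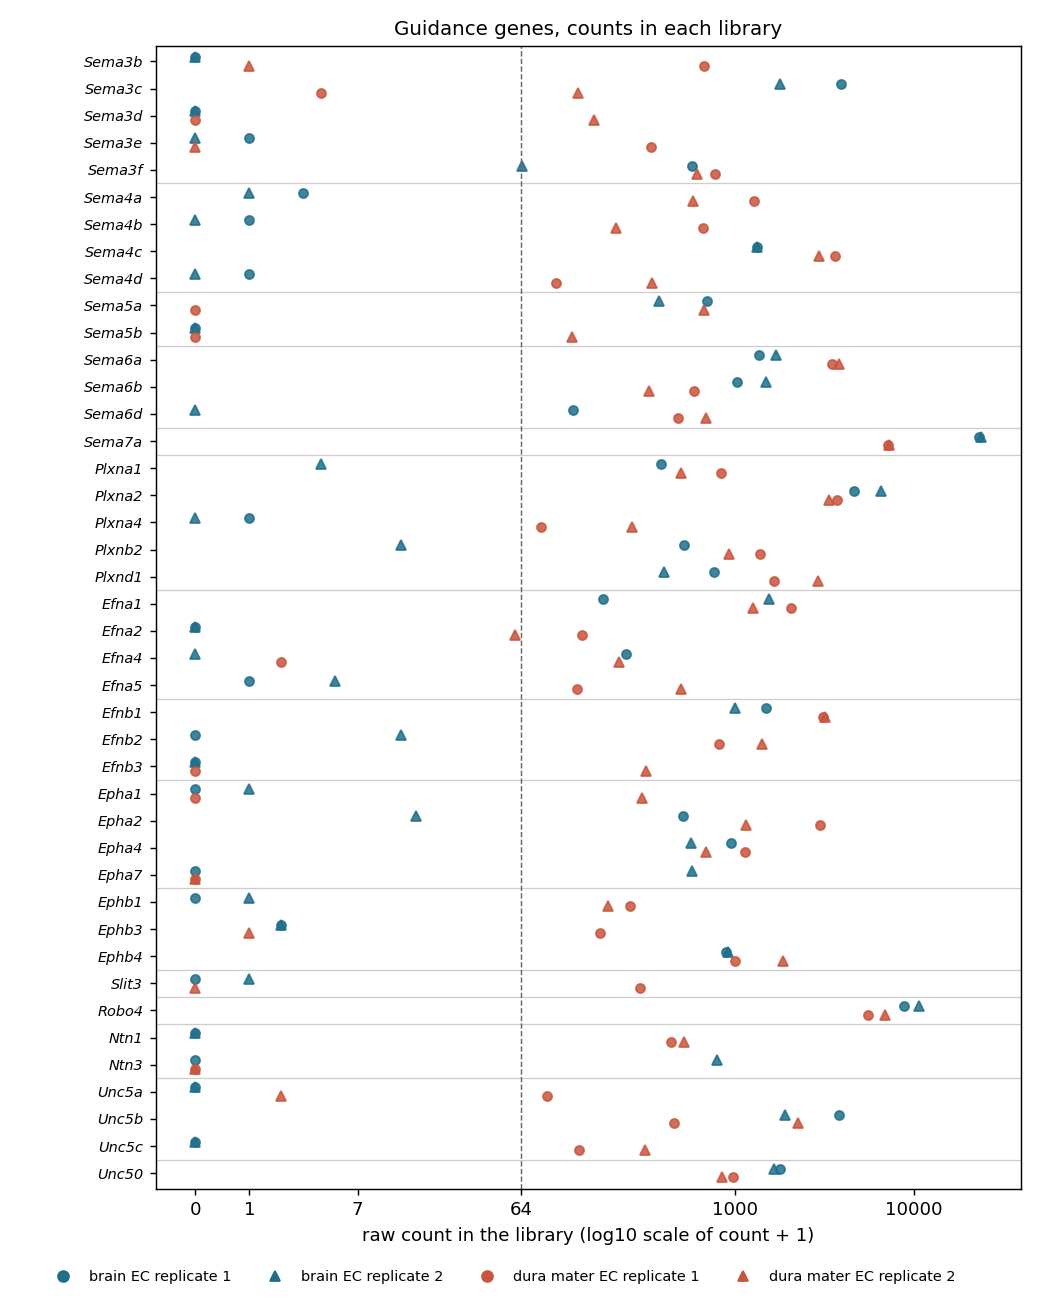
Raw counts of the 42 members with 64 or more counts in at least 1 library (47.5% of all gene rows), on a log10 scale of count + 1. Circles are replicate 1 and triangles replicate 2, blue is brain, red is dura mater, grey lines separate families and the dashed line marks 64 counts. For Sema4a, Sema4b, Ntn1 and Unc5c the blue symbols lie at 3 counts or fewer and the red symbols at 135 or more.

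Sema7a, a semaphorin held in the membrane by a lipid anchor, gave the lowest p among the members. The gene lies on chromosome 9, 57940112 to 57962865, plus strand (GRCm38). Its counts were 22804 and 23608 in brain and 7158 and 7234 in the dura mater, which is 1559 and 1769 against 529 and 439 CPM. Both brain libraries lay above both dura mater libraries, with the lowest brain value 2.95 times the highest dura mater value, while replicates differed by 1.13 times in brain and 1.20 times in the dura mater. The log2 fold change was −1.78 (SE 0.31), with an unadjusted p of 0.00107 and an adjusted p of 0.0949 in edgeR. With single libraries left out its log2 fold change ran from −2.06 to −1.67. Over the alternatives that kept the 4 libraries its adjusted p ran from 2.0e-05 in DESeq2 to 0.110 in edgeR with upper-quartile scaling. Plexin C1, its plexin receptor, was barely counted, at 0 in brain and at 2 and 26 counts in the dura mater.

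Sema7a also set the balance of the whole set. Since 3′ counts do not grow with transcript length, CPM values of members can be summed, and the 66 guidance genes summed to 3956 ± 271 CPM in brain and 3123 ± 369 CPM in the dura mater (SD, n = 2). Sema7a made up 41.4% and 42.7% of that sum in brain and 15.6% and 15.3% in the dura mater. Without it the sum was 2291 ± 122 CPM in brain and 2639 ± 306 CPM in the dura mater, so that the higher tissue depended on this 1 gene.

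**Figure D3:**
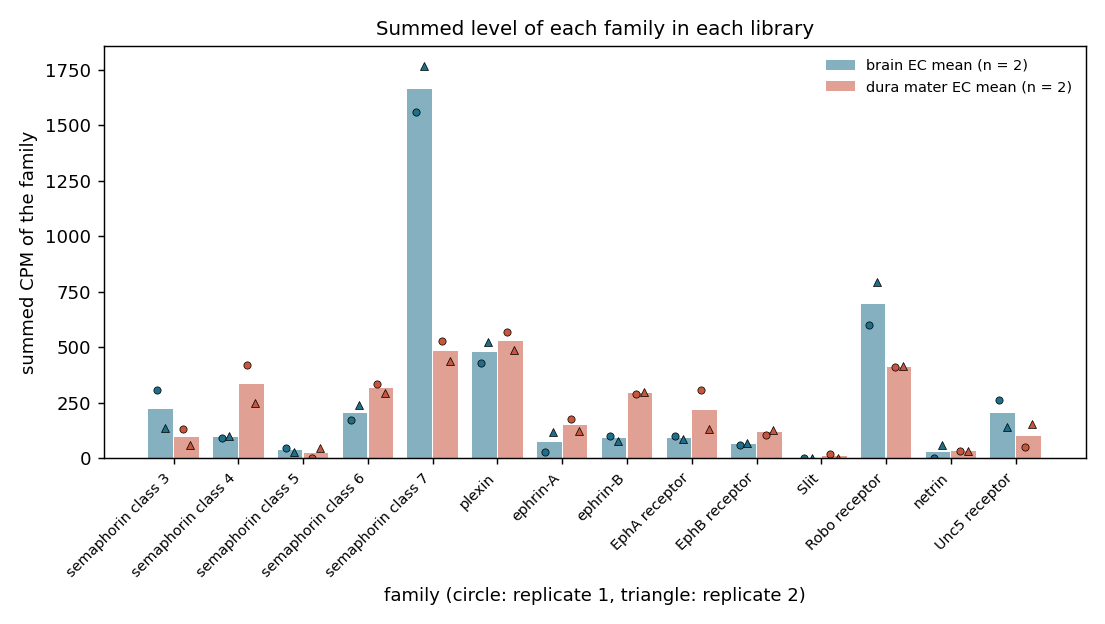
Summed CPM of each guidance family (bars, mean of 2 libraries; circle, replicate 1; triangle, replicate 2) in brain ECs (blue) and dura mater ECs (red). Semaphorin class 7 is Sema7a alone, at 1664 CPM in brain and 484 CPM in the dura mater, and class 4 semaphorins (334 against 96.0 CPM) and B ephrins (295 against 89.8 CPM) lie higher in the dura mater without overlap.

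Among the secreted class 3 semaphorins, which need neuropilins or plexin D1 to signal, Sema3c lay higher in brain, Sema3f was counted in each library, and the others were near 0 or rested on 1 library. Sema3c (chromosome 5, 17574281 to 17730268, plus strand) had 3908 and 1786 counts in brain and 4 and 134 in the dura mater. The lower brain library was 16.4 times above the higher dura mater library in CPM, although the dura mater replicates themselves were 27.5 times apart. Its log2 fold change was −5.52 (SE 1.62, edgeR adjusted p 0.347). The log2 fold change was −5.02 without brain replicate 1, −6.04 without brain replicate 2, −4.74 without dura mater replicate 1 and −8.85 without dura mater replicate 2. Sema3f, a ligand of neuropilin-2, had 578 and 65 counts in brain and 777 and 620 in the dura mater, and the tissues overlapped. Sema3e, which binds plexin D1 directly, had 1 and 0 counts in brain and 343 and 0 in the dura mater, and Sema3b had 0 and 0 against 672 and 1. Each of these counts came from dura mater replicate 1, whereas the 164 counts of Sema3d and the 47 of Sema3a came from replicate 2. Sema3g, known as an arterial endothelial semaphorin and one of the markers given for this set, was at 0 counts in the 4 libraries. Only the counting limits given above apply to it.

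The membrane-bound class 4 semaphorins were the semaphorins with the widest gap toward the dura mater. Sema4a (chromosome 3, 88435959 to 88461182, minus strand), a ligand of B and D plexins, had 3 and 1 counts in brain and 1287 and 590 in the dura mater. The ratio of the pooled counts, scaled by library size, was 437 (95% exact counting interval 171 to 1607), and the fitted log2 fold change was 7.88 (SE 2.26, edgeR adjusted p 0.335). With single libraries left out the log2 fold change of Sema4a ran from 6.92 to 8.37. Sema4b (chromosome 7, 80186841 to 80226527, plus strand) had 1 and 0 counts in brain and 669 and 218 in the dura mater, and Sema4d, the ligand of plexin B1, had 1 and 0 against 100 and 348. Their fitted log2 fold changes were 7.51 (SE 2.96) and 6.38 (SE 2.96), with edgeR adjusted p of 0.466 and 0.494. The ratios of their pooled counts were 827 (95% exact counting interval 148 to 32700) and 418 (74.6 to 16534), and the fitted changes of genes this low in brain depend on the prior count. The counting intervals of these genes and of Sema4a leave out the spread between libraries. For these 3 genes the tissues did not overlap, but replicates of the dura mater were 2.66 to 3.74 times apart. Sema4c, a ligand of plexin B2, was counted throughout, at 90.9 and 101 CPM in brain and 268 and 178 CPM in the dura mater. Both dura mater values lay above both brain values (log2 fold change 1.22, SE 0.56, edgeR adjusted p 0.492). Sema4f had 1 count in brain replicate 2 alone, and Sema4g was at 0 throughout. The class as a whole summed to 96.0 ± 6.70 CPM in brain and 334 ± 121 CPM in the dura mater (SD, n = 2), without overlap.

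Class 6 semaphorins, transmembrane ligands of A plexins, lay on both sides. Sema6a was at 93.2 and 128 CPM in brain and 258 and 231 CPM in the dura mater, and Sema6b was at 70.4 and 112 CPM against 43.7 and 20.2 CPM. The tissues did not overlap for either gene, and the order was opposite, with log2 fold changes of 1.15 (SE 0.52, edgeR adjusted p 0.489) and −1.51 (SE 1.13, edgeR adjusted p 0.851). Sema6d had 125 and 0 counts in brain and 483 and 695 in the dura mater, and Sema6c was at 0. In class 5, Sema5a had 699 and 381 counts in brain and 0 and 672 in the dura mater, so that its order turned on which dura mater library was read, and Sema5b had 124 counts in dura mater replicate 2 alone.

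Of the 9 plexins, the receptors of semaphorins, 2 were at 64 or more counts in each library. Plxnd1 (chromosome 6, 115954811 to 115995005, minus strand) was at 52.2 and 30.4 CPM in brain and 123 and 176 CPM in the dura mater. The lower dura mater library was 2.36 times above the higher brain library, a gap larger than that between replicates (1.72 times in brain and 1.43 times in the dura mater), but the difference did not pass (log2 fold change 1.85, SE 0.81, edgeR adjusted p 0.470). Plxna2, a receptor of Sema6a, had the opposite order, with 316 and 492 CPM in brain and 274 and 204 CPM in the dura mater (log2 fold change −0.76, SE 0.45, edgeR adjusted p 0.670). Plxnb2 and Plxna1 were split in brain, with 520 and 13 counts and 389 and 4 counts, against 1379 and 929 and 838 and 503 in the dura mater. The lower dura mater library was 1.59 and 1.15 times above the higher brain library. The log2 fold change of Plxnb2 was 2.11 (edgeR adjusted p 0.937), and leaving out brain replicate 1 moved it to 6.12. Exons of an antisense gene cover 10.7% of the exon length of Plxna1 and 7.27% of that of Sema4c, and the use of strand in counting is not stated, so their counts are uncertain. Reads lie at 3′ ends, so the share of counts this touches cannot be read from the exon length. Such cover was 23.4% for Ntn5, 14.1% for Efna3 and 0.617% to 6.01% for Epha1, Ntn3, Plxnb1, Ephb1, Epha6, Epha10, Plxna4, Unc5a, Ephb4 and Unc5c. Plxna4 had 1 and 0 counts in brain and 83 and 267 in the dura mater, Plxnb1 had 56 counts in dura mater replicate 2 and at most 1 elsewhere, and Plxna3 and Plxnb3 were at or near 0. Plexins summed to 477 ± 66.2 CPM in brain and 528 ± 56.0 CPM in the dura mater (SD, n = 2), and the libraries overlapped.

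Ephrins, the ligands of the Eph system, were higher in the dura mater libraries as a family. The 8 genes summed to 132 and 194 CPM in brain and 468 and 424 CPM in the dura mater, 2.73 times higher on average and without overlap. Efnb2 (chromosome 8, 8617434 to 8661242, minus strand), the arterial ephrin, had 0 and 13 counts in brain and 815 and 1418 in the dura mater. Its lower dura mater library was 61.8 times above the higher brain library in CPM, and its log2 fold change was 6.88 (SE 2.67, unadjusted p 0.0403, edgeR adjusted p 0.466). Without brain replicate 2, which holds its 13 brain counts, the log2 fold change was 9.07, and without brain replicate 1 it was 5.99. Of 10 other arterial markers, 8 and 7 reached 64 counts in brain and 9 and 10 in the dura mater. The 10 summed to 2011 and 1547 CPM in brain against 1163 and 1162 CPM in the dura mater, without overlap. Their median log2 fold change was −0.086 over the 9 tested, of which 3 lay higher in the dura mater. Efnb1 was counted throughout, at 103 and 75.8 CPM in brain and 231 and 194 CPM in the dura mater (log2 fold change 1.25, SE 0.57, edgeR adjusted p 0.489). Efnb3 had 320 counts in dura mater replicate 2 alone.

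The A ephrins, which are tethered by a lipid anchor, were less even between replicates. Efna1, the ligand of EphA2, had 185 and 1560 counts in brain and 2076 and 1274 in the dura mater, and the tissues overlapped (log2 fold change 0.83, SE 1.17). Its sign turned without brain replicate 1 (−0.053). Efna5 had 1 and 5 counts against 132 and 502, and Efna2 had 0 and 0 against 141 and 59, at least 32.6 times higher in the dura mater by the counting limit. Neither passed, with edgeR adjusted p of 0.582 and 0.466. Efna4 was split in both tissues, at 248 and 0 against 2 and 226 counts, and exons of an antisense gene cover 10.5% of its exon length, while Efna3 had 44 counts in dura mater replicate 1 alone.

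Among the Eph receptors, 2 of 14 were counted at 64 or more in each library. Ephb4 (chromosome 5, 137350109 to 137378669, plus strand), the venous receptor of ephrin-B2, was at 61.5 and 69.2 CPM in brain and 74.4 and 113 CPM in the dura mater. The tissues were 1.08 times apart at their nearest libraries, which is less than the 1.52 times between the dura mater replicates, and the log2 fold change of 0.52 (SE 0.87) had an edgeR adjusted p of 1.00. Thus EphB4 was counted in both tissues, while its ligand ephrin-B2 was near 0 in brain. Epha4, a receptor of both ephrin classes, had 960 and 572 counts in brain and 1147 and 693 in the dura mater, and its log2 fold change of 0.22 (SE 1.14) changed sign without brain replicate 2 (−0.10) or dura mater replicate 1 (−0.51). Epha2 had 517 and 16 counts in brain and 3010 and 1154 in the dura mater, and its fitted log2 fold change was 2.99 (SE 1.61, edgeR adjusted p 0.591). The tissues did not overlap for Epha2, but its brain replicates were 29.5 times apart, and without brain replicate 1 its log2 fold change was 6.75. Ephb1 had 0 and 1 counts in brain and 262 and 197 in the dura mater (edgeR adjusted p 0.490). Epha7 was counted in brain replicate 2 alone (576), Epha1 in dura mater replicate 2 (304) and Ephb3 in dura mater replicate 1 (178), each at 2 or fewer counts elsewhere. Epha3, Epha5, Epha6, Epha8 and Epha10 were at 0 in the 4 libraries, Ephb2 had 2 counts in 1 library, and Ephb6, which lacks kinase activity, had 18 or fewer.

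Promoter sequences are shown for 3 of these genes, the member with the lowest p, the arterial ephrin and its venous receptor, as the 250 bases before the RefSeq start on the gene's strand, 5′ to 3′ (GRCm38.p6). Capitals mark the GC box GGGCGG or its complement CCGCCC.
Sema7a, chr9:57939862-57940111, plus strand: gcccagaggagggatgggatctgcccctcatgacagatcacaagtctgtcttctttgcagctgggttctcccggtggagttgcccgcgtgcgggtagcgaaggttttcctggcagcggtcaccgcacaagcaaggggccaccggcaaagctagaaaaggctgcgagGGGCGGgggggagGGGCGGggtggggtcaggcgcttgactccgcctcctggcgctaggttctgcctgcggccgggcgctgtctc
Efnb2, chr8:8661243-8661492, minus strand: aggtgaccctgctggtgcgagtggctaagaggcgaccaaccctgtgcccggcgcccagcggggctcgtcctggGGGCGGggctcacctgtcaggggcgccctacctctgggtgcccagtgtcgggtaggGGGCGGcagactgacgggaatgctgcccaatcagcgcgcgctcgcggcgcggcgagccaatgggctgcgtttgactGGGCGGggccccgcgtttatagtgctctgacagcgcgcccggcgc
Ephb4, chr5:137349859-137350108, plus strand: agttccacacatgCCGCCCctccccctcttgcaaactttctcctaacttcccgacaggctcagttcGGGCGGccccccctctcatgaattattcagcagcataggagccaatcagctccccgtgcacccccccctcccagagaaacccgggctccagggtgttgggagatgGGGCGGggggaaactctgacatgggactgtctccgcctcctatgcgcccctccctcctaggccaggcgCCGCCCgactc
The box occurred 2 times before Sema7a, 3 times before Efnb2 and 4 times before Ephb4, so it was shared by genes with opposite orders of counts. RefSeq listed 75 such windows for 59 of the 69 members. On either strand, 53 of them held the box (70.7%), against 32.7% of all 32851 windows and 42.6% of the 21263 windows of protein-coding genes. Of the other motifs searched, the TCF/LEF letters CTTTGA were in 3 member windows (4%, against 12.7% of protein-coding windows), the ETS letters CGGAAG in 7 (9.33%, against 17.1%) and the RBPJ letters GTGGGAA in 3 (4%, against 5.26%). None of these 3 motifs was in the windows printed above. A match of letters is a description and not a bound site.

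Robo4 (chromosome 9, 37401897 to 37415115, plus strand), the endothelial Robo receptor, was counted throughout, at 600 and 792 CPM in brain and 410 and 417 CPM in the dura mater. Both brain libraries lay above both dura mater libraries, the nearest being 1.44 times apart, against 1.32 times between the brain replicates (log2 fold change −0.75, SE 0.35, edgeR adjusted p 0.503). No other Robo receptor reached 2 counts in a library, since Robo1 and Robo2, the receptors known from axons, had at most 1 count each and Robo3 was at 0. Of their Slit ligands, Slit1 was at 0 and Slit2 had 3 or fewer counts in each library, while Slit3 had 298 counts in dura mater replicate 1 and at most 1 elsewhere.

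In the netrin system, Unc5b was counted in each library, while Ntn1 and Unc5c were counted in the dura mater alone. Unc5b (chromosome 10, 60762593 to 60831581, minus strand), a netrin and Robo4 receptor of vessels, had 3820 and 1914 counts in brain and 459 and 2245 in the dura mater, which is 261 and 143 against 33.9 and 136 CPM. The nearest libraries of the tissues were 1.05 times apart and the dura mater replicates 4.02 times, and the tissues overlapped under upper-quartile scaling and under library size alone (log2 fold change −1.25, SE 0.83, edgeR adjusted p 0.762). The log2 fold change was −0.71 without dura mater replicate 1 and −2.59 without dura mater replicate 2. Ntn1 (chromosome 11, 68209364 to 68400823, minus strand), which encodes netrin-1, was at 0 in both brain libraries and had 440 and 521 counts in the dura mater, 32.5 and 31.6 CPM. By the counting limit it was at least 149 times higher in the dura mater, and its dura mater replicates differed by 1.03 times. With 0 counts in brain, however, the fit gave a wide error (log2 fold change 7.87, SE 2.66, unadjusted p 0.0296, edgeR adjusted p 0.466). Unc5c likewise had 0 and 0 counts against 135 and 316, at least 67.8 times higher by the counting limit (edgeR adjusted p 0.466). Ntn3 had 797 counts in brain replicate 2 and 0 in each other library, so that it did not pass the filter with the 4 libraries. Without a filter on low counts its log2 fold change was −7.76 (edgeR adjusted p 0.534). It was −8.79 without brain replicate 1, −7.85 without dura mater replicate 1 and −7.71 without dura mater replicate 2. Unc5a had 90 and 2 counts in the dura mater and 0 in brain. Ntn4, a netrin of vascular basement membranes, was at 0 in the 4 libraries, as was Unc5d, and Ntn5 had 1 count. Of the 3 symbols outside the families, Unc50 was at 123 and 125 CPM in brain and 72.4 and 51.9 CPM in the dura mater, and Unc5cl and Plxna4os1 were at 0.

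**Figure D4:**
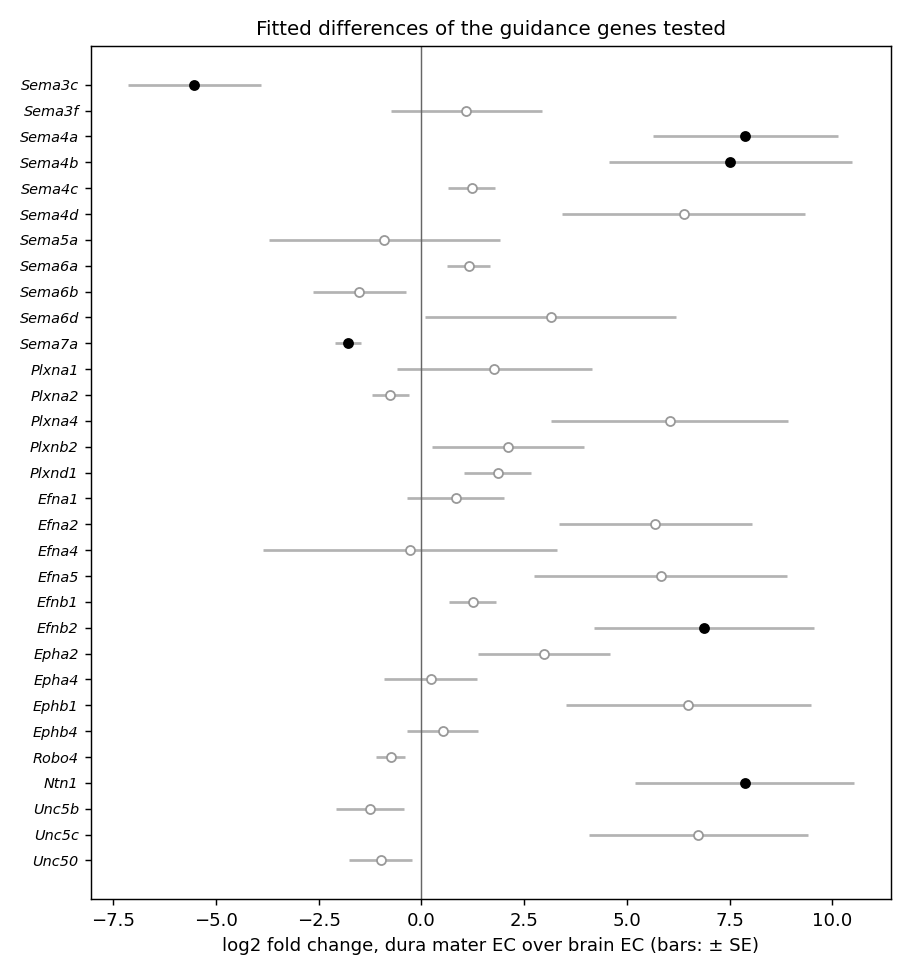
Log2 fold change, dura mater over brain ECs, of the 31 members tested (points) with their SE (bars) in edgeR. Filled black points have an unadjusted p under 0.05 (Sema3c, Sema4a, Sema4b, Sema7a, Efnb2 and Ntn1), open points do not, and 0 of the 31 passed the adjustment; 22 lie above 0, where 49.8% of all genes tested did.

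Other genes of these pathways were read from lists by role. Among 18 coreceptors and further ligands and receptors, 8 were tested and 0 passed in edgeR, against 0.61% of all genes tested. At an unadjusted p under 0.05 there were 3 of the 8, against 10% of all genes. The median log2 fold change of the 8 was 0.71. Nrp1, the neuropilin that pairs with plexins and with VEGFR2, had 3576 and 4107 counts in brain and 17261 and 26517 in the dura mater (log2 fold change 2.38, SE 0.35, edgeR adjusted p 0.0544). With single libraries left out its log2 fold change ran from 2.18 to 2.49. Nrp2 had 19 and 461 counts against 5740 and 10427 (log2 fold change 4.87, SE 1.42, edgeR adjusted p 0.344). Its log2 fold change was 3.88 without brain replicate 1 and 8.46 without brain replicate 2. For both neuropilins each dura mater library lay above each brain library. The netrin receptors Neo1 (285 and 244 against 256 and 1279 counts) and Dcc (330 counts in brain replicate 2 alone) did not separate the tissues, and the log2 fold change of Neo1, 1.35, was −0.017 without dura mater replicate 2.

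Of 22 genes of plexin signalling 17 were tested, and 1 passed, toward the dura mater (0.428% of all genes). It was Rnd1, a small GTPase that binds the cytoplasmic part of plexins. Its counts were 376 and 226 in brain and 7568 and 7379 in the dura mater, and its log2 fold change was 4.55 (SE 0.54, edgeR adjusted p 0.0260), while limma-voom gave an adjusted p of 0.138. Of the 17, 2 had an unadjusted p under 0.05 in edgeR, and the median log2 fold change of the 17 was 0.33. Of 19 genes of Eph and ephrin signalling 12 were tested and 0 passed (2 at an unadjusted p under 0.05), with a median of −0.46. For Slit and Robo signalling 7 of 10 genes were tested and 0 passed (0 at an unadjusted p under 0.05), with a median of 0.50, and for netrin and Unc5 signalling 10 of 10 were tested and 0 passed (3 at an unadjusted p under 0.05), with a median of 0.95. Over all genes tested the median was −0.0069, 0.61% passed and 10% had an unadjusted p under 0.05.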

How the data were processed

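ECs were sorted by FACS, and QuantSeq libraries, which read 3′ ends, were made from total RNA. For each library the authors deposited unscaled counts, as whole numbers per gene symbol. The methods name TopHat and cufflinks, and the submitters' processing notes name Bowtie2, edgeR and mm10. The counting step, the annotation, strand and molecular identifiers are not given in the sources used here. The titles gave the groups.

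Computed here were CPM with TMM factors, and edgeR 4.0.16 (R 4.3.3; quasi-likelihood, filterByExpr, tissue as the term, Benjamini-Hochberg over 9347 genes, two-sided). It stands in for cufflinks, which needs alignments. Log2 fold changes used a prior count of 2, and the SE is their size over the square root of F. Alternatives were DESeq2 1.42.0, limma-voom (limma 3.58.1), other scalings and filters, a prior count of 0.5, a replicate block and each library left out. Scripts were tested on simulated data. Recovery was required only at a spread between libraries smaller than that of these data (common biological coefficient of variation 1.39). Members and lists were chosen with earlier results of these data known. Values per library are given for members at 64 or more counts in both libraries of a tissue, at p under 0.05, or named as markers (Plxnd1, Sema3g, Efnb2, Ephb4, Unc5b, Robo4), and of the pathway lists for called genes, Nrp1, Nrp2, Neo1 and Dcc. Others were named after their values were seen. Positions are from GENCODE M21 (GRCm38, the mm10 assembly), matched by symbol for 69 of 69 members.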

Additional observations from a re-analysis of the deposited data

How the results depend on the processing

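Against 0 members called, RLE, upper-quartile and library-size scaling also gave 0. DESeq2 called 6, edgeR without a filter on low counts called 2, edgeR with at least 10 counts in every library called 1, and limma-voom called 1. A replicate block in edgeR gave 2 calls, Sema7a (adjusted p 0.00652) and Sema3c (0.0289), and 224 genes in all (2.4%) against 57. The labels do not say that equal numbers share mice, and deviations of such libraries did not run together (correlation across genes −0.021), so no pairing was assumed. Calls are not given with a library left out, since a single library then stands for its tissue. Members at least 2-fold apart numbered 23, but 40 without a filter and 10 with at least 10 counts in every library, and 30 to 40 with a library left out. Members without overlap numbered 26, but 13 with at least 10 counts in every library. These filters test more or fewer genes. The shares of all genes at these settings are not given, so the changes are not read as results about the members. Upper-quartile scaling put the median log2 fold change of all genes at 0.13. Of 416 values of the named genes under alternatives, 4 reversed, each with a library left out. With single libraries left out, Efna1 ran from −0.053 (brain replicate 1) to 3.13, Epha4 from −0.51 (dura mater replicate 1), with −0.10 for brain replicate 2, to 0.62, and Neo1 from −0.017 (dura mater replicate 2) to 1.89. The cause was not tested.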
